A study of Mus musculus with 4 samples.

Results

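The 4 groups of microRNAs (miRNAs) that mark blood cell lineages, namely miR-142, miR-150, miR-181 and miR-223, were followed in mouse activated T cells transduced with Foxp3 or with a control vector. All features of the value table with these numbers were taken by their IDs, whatever their values, which gave 8 of 171 miRNA features among 178 rows: 1org-142-s, 1org-142-as, 2org-142*, 1org-150, 1org-181, 2org-181b, 2org-181c and 2org-223. RNA of the 2 kinds of cells was compared directly on 2-colour arrays. There were 2 arrays at 72 h and 2 at 96 h, and at each time 1 array had the Foxp3 RNA in Cy5 (replicate 1) and 1 had it in Cy3 (replicate 2). Both groups were activated T cells carrying a vector. The sources used here do not give the strain, the T cell subset, the activation, the vector or the number of cultures. Arrays of 1 time point were counted as 1 replicate, because the labels give them the same sources with the dyes exchanged and do not say whether they held the same RNA. So n was 2 time points for every SD. The p-values over both times rest only on the spread between the time points, which limma pooled over the miRNA features. Those for the difference between the times rest only on the spread between dye-swapped arrays, which may be technical.

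A miRNA is cut from a hairpin whose 5p and 3p arms can each give a mature strand of about the same length, and bases 2 to 8 of that strand, the seed, lead the pairing with target messages. miR-142 is made in nearly all blood cells and its 3p arm lowers the adenylyl cyclase Adcy9. miR-150 is abundant in resting mature lymphocytes, where it restrains Myb, and falls after T cell activation. miR-181a is high in immature thymocytes, where it raises the sensitivity of the T cell receptor by lowering phosphatases. miR-223 is a myeloid miRNA that limits the output of granulocytes. Foxp3 is the lineage factor of regulatory T cells.

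The sequences below show which strands are alike in sequence, with the seed in capitals. They are the mouse mature strands of RefSeq (GRCm38.p6), matched by miRNA number. In older names miR-142-s and miR-142-as stood for the 5p and the 3p arm of miR-142, and RefSeq lists miR-181 as an older name of Mir181a-2. The arm measured by 2org-142* was not settled, and the sequences of the array's own probes were not used here.
1org-142-s, miR-142a-5p, chr11:87756867-87756887, plus strand: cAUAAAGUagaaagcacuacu
1org-142-as, miR-142a-3p, chr11:87756903-87756925, plus strand: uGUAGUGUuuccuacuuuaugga
1org-181, miR-181a-5p, chr1:137966468-137966490 and chr2:38852741-38852763, plus strand: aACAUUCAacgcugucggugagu
2org-181b, miR-181b-5p, chr1:137966650-137966673 and chr2:38853845-38853868, plus strand: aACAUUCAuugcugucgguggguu
2org-181c, miR-181c-5p, chr8:84178924-84178945, minus strand: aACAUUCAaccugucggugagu
2org-223, miR-223-3p, chrX:96242884-96242905, plus strand: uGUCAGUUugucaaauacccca

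The arms of miR-142 have different seeds, although both come from the hairpin of Mir142, and the longest stretch in which they are complementary is 10 bases. The 3 miR-181 strands share 1 seed, which 4 of the 1679 mature strands of the RefSeq table carry, the fourth being miR-181d-5p. miR-181a-5p and miR-181c-5p are 1 edit (a base changed, lost or gained) apart, while miR-181b-5p is 4 edits from miR-181a-5p and 5 from miR-181c-5p. Mir181a-2 and Mir181b-2 lie within the span of the protein-coding gene Nr6a1 and of the lncRNA Nr6a1os, and Mir223 within that of the lncRNA F630028O10Rik. RefSeq places a further hairpin, Mir142b, on the other strand of the Mir142 locus, and all 20 bases of its mature strand are complementary to miR-142a-3p.

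The direction of the deposited log2 ratios was not settled by the sources used here, so 2 readings are given for each time point. If the values are Cy5 over Cy3, the ratio of Foxp3 to control is the mean of replicate 1 and of replicate 2 with its sign changed, called the dye-turned mean here. If the values were turned to Foxp3 over control before deposit, as the wording of the sample titles could mean, the ratio is the plain mean of both arrays, called the unturned mean. The dye-turned mean was the one tested, and positive values stand for a higher level with Foxp3 only if that reading holds. The medians of the 171 miRNA features ran from -0.83 to 1.27 over the arrays and those of U6 and tRNA from -0.34 to 1.08, so the arrays shared no centring. Across all miRNA features, which are not independent, the deposited values of the arrays other than 96 h replicate 1 correlated at r = 0.66 to 0.80, while 96 h replicate 1 correlated with them at -0.20 to 0.07. Centring each array on its miRNA median shifts every dye-turned mean by -0.12 at 72 h and -0.62 at 96 h, and every unturned mean by 0.71 and -0.64. Centring on U6 and tRNA shifts the dye-turned means by -0.04 and 0.33. The arrays give ratios and no levels, so whether these cells contained each miRNA was not measured.

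In the deposited values, the features of miR-142 named for the 5p and the 3p arm differed in opposite ways between dye-swapped arrays. Feature 2org-142* was on the side of the 3p feature. The 5p feature 1org-142-s had deposited values of -0.22 and -1.48 at 72 h (replicates 1 and 2) and of 0.73 and -0.22 at 96 h. The 3p feature 1org-142-as had -0.37 and 0.64 at 72 h and -0.005 and 1.39 at 96 h. Feature 2org-142* had -0.09 and 0.80 at 72 h and -0.51 and 0.67 at 96 h. At both times 1org-142-as and 2org-142* were higher on the array with Foxp3 in Cy3 than on its partner, and 1org-142-s was lower there. Centred on the miRNA medians, 1org-142-s had -0.535 and -0.238 at 96 h, so at that time it was higher with Foxp3 in Cy3. Centred on U6 and tRNA it had 0.30 and -1.30 at 96 h, lower with Foxp3 in Cy3.

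Turned by the dyes, the deposited values of 1org-142-as lay below 0 on all 4 arrays, with means of -0.51 at 72 h and -0.70 at 96 h. The mean over both times was -0.60 ± 0.13 (SD, n = 2), or 1.52-fold lower. The same held for 2org-142*, with means of -0.45 and -0.59 and -0.52 ± 0.10 over both (SD, n = 2). These were 2 of the 10 miRNA features (5.85%) below 0 on all 4 arrays in that reading. Centred on the miRNA medians, each was below 0 on 3 of 4 arrays. Centred on U6 and tRNA, 1org-142-as was below 0 on all 4, as were 8 of 171 features (4.68%), and 2org-142* on 2 of 4. The 5p feature had dye-turned means of 0.63 and 0.47, or 0.55 ± 0.11 over both (SD, n = 2), and was above 0 on 3 of 4 arrays, although its mean at 96 h was -0.15 when centred on the miRNA medians. The unturned means were of the opposite sign over both times, with 1org-142-s at -0.30 ± 0.78, the 3p feature at 0.41 ± 0.39 and 2org-142* at 0.22 ± 0.20 (SD, n = 2). Which arm was higher with Foxp3 thus depends on the reading.

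**Figure D1:**
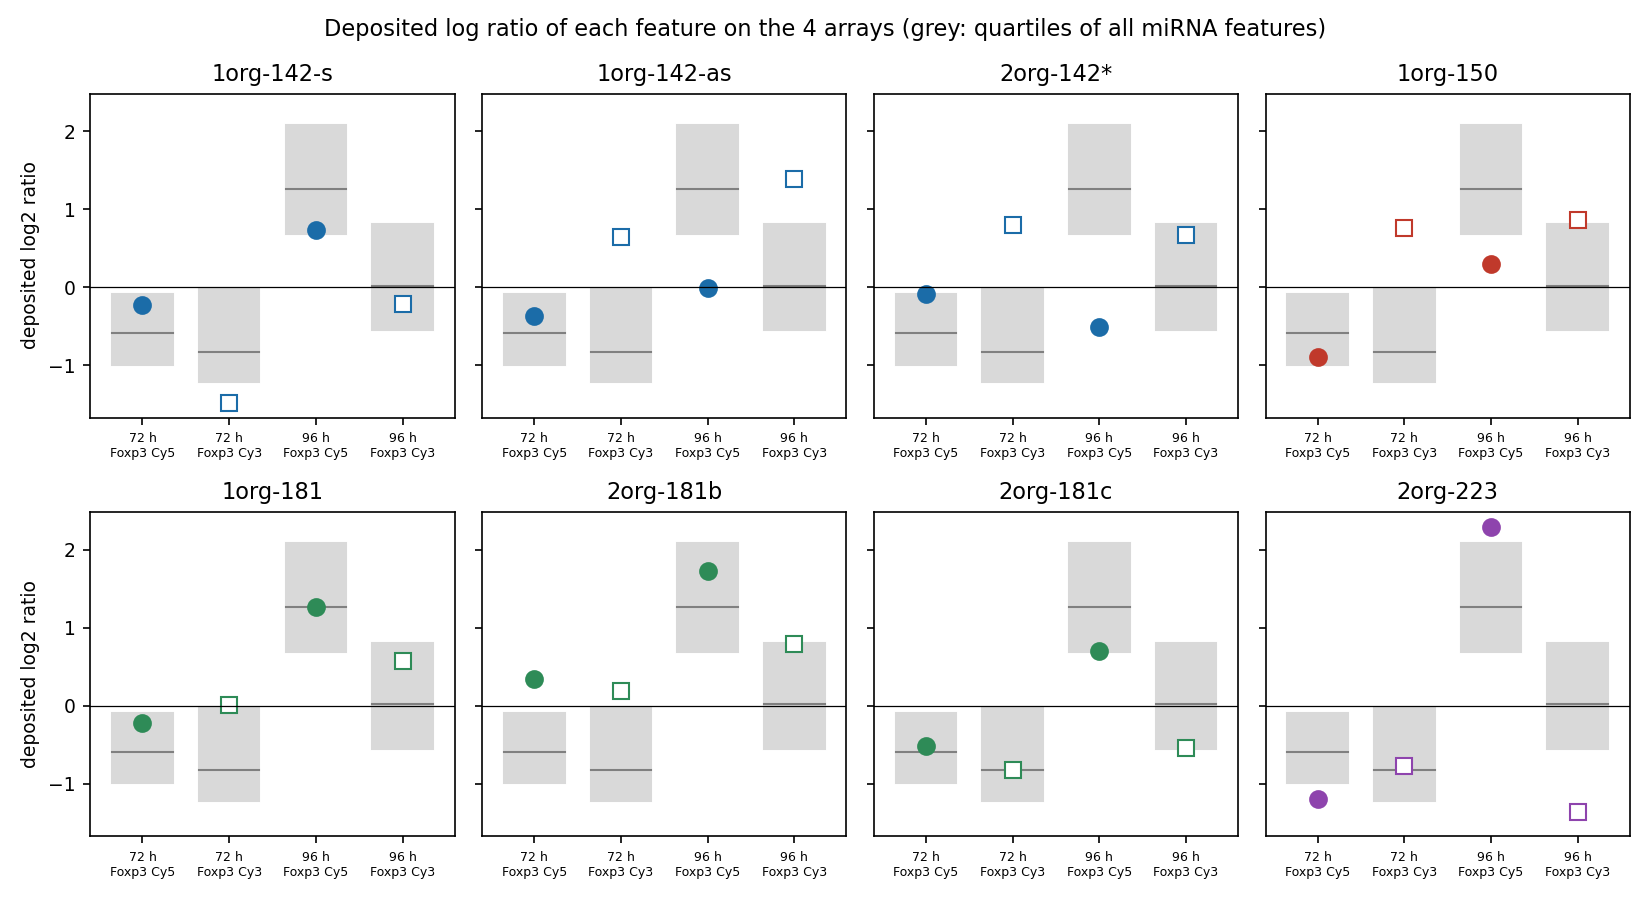
Deposited log2 ratio (y axis) of each of the 8 features on the 4 arrays (x axis), with filled circles for Foxp3 in Cy5 and open squares for Foxp3 in Cy3. Grey boxes span the quartiles of the 171 miRNA features and the grey line is their median, which reaches 1.27 on 96 h replicate 1. The squares lie above their partner circles for 1org-142-as, 2org-142* and 1org-150 at both times, and below them for 1org-142-s, 2org-181b and 2org-181c. Centred on the miRNA medians, which is not shown, 2org-181c had -0.560 and -0.561 at 96 h. With that centring the squares of 2org-181b lay above its circles at both times. Its circle and square were at 0.93 and 1.02 at 72 h and at 0.47 and 0.77 at 96 h. The square of 1org-142-s also lay above its circle at 96 h.

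A difference between features of the same array does not depend on how that array was centred. The 3p feature minus the 5p feature of miR-142 gave -0.15 and 2.12 at 72 h and -0.74 and 1.61 at 96 h. The difference was negative wherever Foxp3 was in Cy5 and positive wherever it was in Cy3. Of all 14535 pairs of miRNA features, 1556 (10.7%) had an order that turned with the dyes in this way on all 4 arrays, and 7 of the 28 pairs among the 8 features did. The dye-turned difference was -1.14 at 72 h and -1.17 at 96 h, or -1.15 ± 0.02 (SD, n = 2), a 2.23-fold difference between the arms. The unturned difference was 0.99 and 0.44, or 0.71 ± 0.39 (SD, n = 2). Against the 5p feature, 2org-142* gave 0.13 and 2.29 at 72 h and -1.24 and 0.89 at 96 h, so that the sign turned with the dyes at 96 h but not at 72 h. Its dye-turned differences were -1.08 and -1.06. Between 2org-142* and 1org-142-as the differences moved with time, from above 0 at 72 h (0.28 and 0.16) to below 0 at 96 h (-0.50 and -0.72).

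The miR-181 features, in contrast, kept 1 order on all 4 arrays whatever the dye, with 2org-181b highest, 1org-181 next and 2org-181c lowest. Feature 1org-181 had deposited values of -0.22 and 0.006 at 72 h and 1.27 and 0.57 at 96 h. Feature 2org-181b had 0.34 and 0.20 at 72 h and 1.73 and 0.79 at 96 h. Feature 2org-181c had -0.52 and -0.82 at 72 h and 0.71 and -0.54 at 96 h. Each of the 3 had its highest value on 96 h replicate 1, the array with the highest median over all miRNA features.

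Feature 2org-181b exceeded 1org-181 by 0.56 and 0.19 at 72 h and by 0.46 and 0.22 at 96 h, and 2org-181c by 0.86, 1.01, 1.03 and 1.33 on the arrays in the same order. In all, 3083 of the 14535 pairs of miRNA features (21.2%) kept their order on all 4 arrays, and so did 5 of the 28 pairs among the 8 features (17.9%), 3 of them within miR-181. A part of a ratio that is equal on both arrays of a dye swap goes wholly into the unturned mean. The dye-turned differences against 1org-181 were 0.15 ± 0.04 for 2org-181b and 0.27 ± 0.01 for 2org-181c (SD, n = 2). They were smaller in size than the unturned ones, which were 0.36 ± 0.03 and -0.70 ± 0.20 (SD, n = 2).

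The dye-turned means of 1org-181 were -0.11 at 72 h and 0.35 at 96 h, those of 2org-181b 0.07 and 0.47, and those of 2org-181c 0.15 and 0.62. Over both times they were 0.12 ± 0.33, 0.27 ± 0.28 and 0.39 ± 0.33 (SD, n = 2), of which the mean of 2org-181c was the 1 that exceeded its SD. Centred on the miRNA medians they were -0.25, -0.10 and 0.02. Unturned, 2org-181b was above 0 on all 4 arrays, as were 12 of the 171 miRNA features (7.02%), with a mean of 0.77 ± 0.70 (SD, n = 2). Feature 2org-213, whose number RefSeq lists as an older name of the miR-181a hairpin Mir181a-1 and whose arm was not settled, had -1.65 and -1.32 at 72 h and 2.10 and -1.33 at 96 h, and lay below 1org-181 on 3 of the 4 arrays and above it on 96 h replicate 1.

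**Figure D2:**
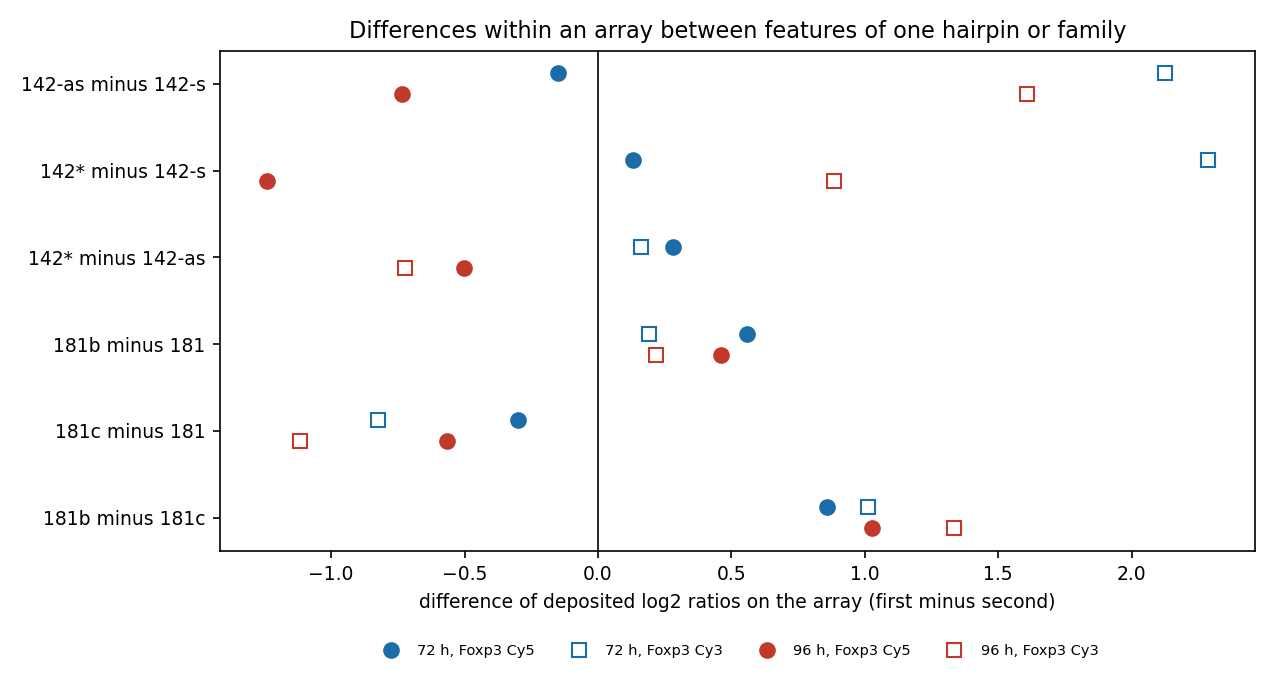
Difference of deposited log2 ratios on 1 array (x axis) for 6 pairs of features (y axis), blue for 72 h and red for 96 h, with filled circles for Foxp3 in Cy5 and open squares for Foxp3 in Cy3. The differences of 1org-142-as minus 1org-142-s change sign with the dyes, from -0.74 to 2.12, and those within miR-181 keep their sign on all 4 arrays.

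Feature 1org-150 had deposited values of -0.90 and 0.76 at 72 h and of 0.29 and 0.86 at 96 h. As for the miR-142 3p arm, both values with Foxp3 in Cy3 were above both with Foxp3 in Cy5. Its dye-turned mean at 72 h was -0.83, or 1.78-fold lower, with -0.90 and -0.76 on the turned arrays. Only 1 of the other 170 miRNA features (0.588%) was lower there. At 96 h the dye-turned mean was -0.28 from 0.29 and -0.86, with 14.1% of the other features lower. Over both times it was -0.56 ± 0.39 (SD, n = 2), against an unturned mean of 0.25 ± 0.46 (SD, n = 2). On 96 h replicate 1 its value lay below that array's miRNA median of 1.27. Centred on the miRNA medians, 1org-150 was therefore below 0 on all 4 turned arrays, as were 6 of the 171 features (3.51%), with means of -0.95 at 72 h and -0.90 at 96 h. Centred on U6 and tRNA, it was below 0 on 3 of 4 turned arrays, with means of -0.865 and 0.045.

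Feature 2org-223 had deposited values of -1.20 and -0.78 at 72 h and of 2.30 and -1.36 at 96 h. The value of 96 h replicate 1 was above 0 and the other 3 were below 0. At 72 h the feature ranked above 17.1% of the other miRNA features on replicate 1 and above 54.1% on replicate 2. At 96 h the feature ranked above 81.2% of the other miRNA features on replicate 1 and above 1.18% on replicate 2. Its dye-turned means were -0.21 at 72 h, from -1.20 and 0.78, and 1.83 at 96 h, from 2.30 and 1.36, or 3.55-fold higher. That made 0.81 ± 1.44 over both times (SD, n = 2), the mean with the largest SD of the 8. The unturned means were -0.99 and 0.47, or -0.26 ± 1.03 (SD, n = 2).

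**Figure D3:**
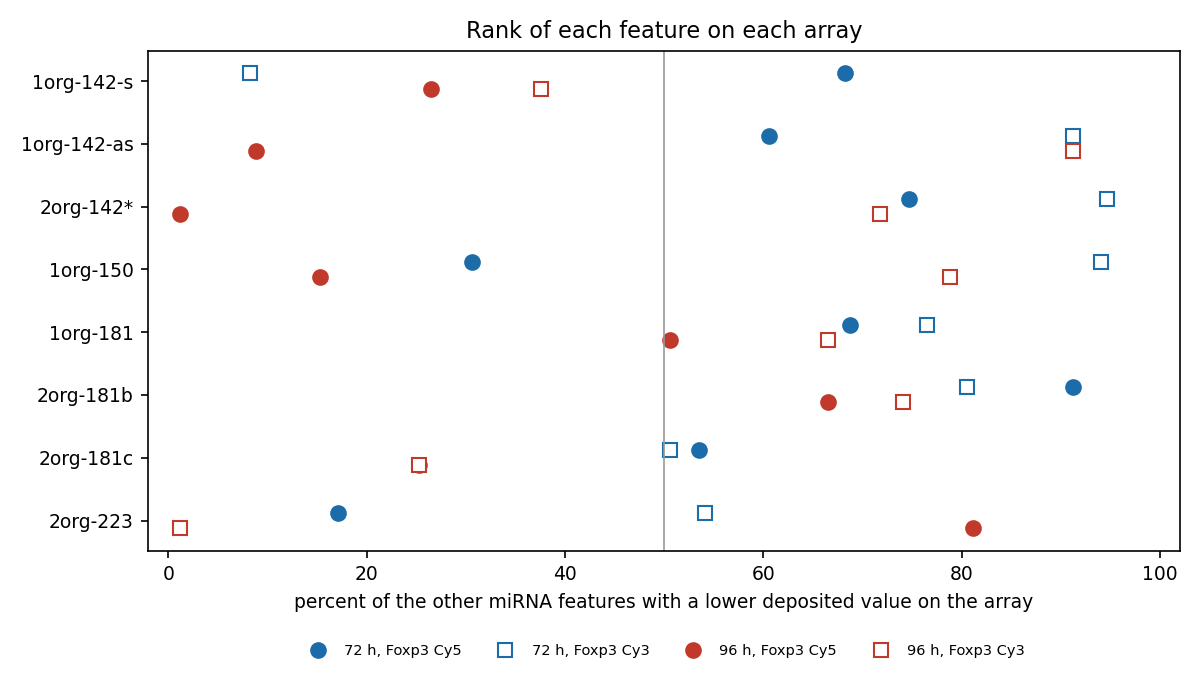
Percent of the other 170 miRNA features with a lower deposited value on the same array (x axis) for each of the 8 features (y axis), blue for 72 h and red for 96 h, with filled circles for Foxp3 in Cy5 and open squares for Foxp3 in Cy3. Feature 2org-181b stays above the middle on every array, between 66.5% and 91.2%, while 2org-142* ranges from 1.18% to 94.7%. Both 96 h points of 2org-181c fall at 25.3%.

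The first comparison asked which features differed with Foxp3 over both time points. None of the 8 features passed limma's Benjamini-Hochberg adjusted p of 0.05 over the 171 miRNA features, with adjusted p = 0.545 for 2org-223, 0.578 for 1org-142-as, 0.58 for 1org-142-s, 2org-142* and 1org-150, 0.63 for 2org-181c, 0.703 for 2org-181b and 0.905 for 1org-181. No feature of the table passed (0%), and 16 of 171 (9.36%) had an unadjusted limma p under 0.05, with 0 of the 8 among them. The fit had 1 residual degree of freedom per feature. Limma gave every feature the variance pooled over the 171, with a standard error of 0.479, whatever the feature's own SD. After centring on the miRNA medians, 3 of the 8 had an unadjusted limma p under 0.05 on the lower side, as 18 of 171 features (10.5%) did. These were 1org-142-as, 1org-150 and 2org-142*, at -0.97, -0.93 and -0.89, with a limma adjusted p = 0.261 for each. Without 72 h replicate 1, 2org-223 at 1.30 (limma adjusted p = 0.0328) and 2org-181c at 0.72 (limma adjusted p = 0.0469) passed, in a fit that called 94 of 171 features (55.0%). By unturned means the 8 adjusted limma p-values were all 0.998.

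At 72 h, 1org-150 was the 1 of the 8 with a dye-turned mean past 1.5-fold (0.58 on the log2 scale) and 1 sign on both arrays, on the lower side, where 9 of 171 features (5.26%) passed. On the higher side 4 of 171 (2.34%) passed and none of the 8, since 1org-142-s, at 0.63, had opposite signs on its turned arrays. These counts carry no test, since each time point is 1 replicate. Centred on the miRNA medians, 1org-150 was again the 1 of the 8, among 6 of 171 (3.51%) on the lower side. In the unturned reading 1org-142-s at -0.85, 2org-181c at -0.67 and 2org-223 at -0.99 passed on the lower side, 3 of 8 against 91 of 171 (53.2%).

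At 96 h, 4 of the 8 passed by dye-turned means. Feature 1org-142-as, at -0.70, and 2org-142*, at -0.59, were lower, 2 of 8 against 9 of 171 (5.26%). On the higher side were 2org-223 at 1.83 and 2org-181c at 0.62, 2 of 8 against 79 of 171 (46.2%). Centred on the miRNA medians, 1org-150 at -0.90, 2org-142* at -1.21 and 1org-142-as at -1.32 were lower, 3 of 8 against 43 of 171 (25.1%), and 2org-223 at 1.20 was higher, 1 of 8 against 30 of 171 (17.5%). Centred on U6 and tRNA, none of the 8 was lower, against 4 of 171 (2.34%), and 5 were higher, against 108 of 171 (63.2%). Without 96 h replicate 2, 0 of the 8 were lower and 5 higher, against 2 and 131 of 171. Without 96 h replicate 1, 4 were lower and 1 higher, against 56 and 41 of 171. A lone array meets the rule of 1 sign by itself. In the unturned reading 2org-181b at 1.26 and 1org-181 at 0.92 passed on the higher side, 2 of 8 against 58 of 171 (33.9%).

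Between the time points, 2org-223 was the 1 of the 8 whose dye-turned arrays of 96 h all lay on 1 side of those of 72 h and whose means were 1.5-fold or more apart, by 2.04, among 8 of 171 features (4.68%) that were higher at 96 h by this rule. The difference was 1.05 without 72 h replicate 1 and 3.02 without 72 h replicate 2. Limma's term for the difference of the time points over the 4 arrays did not pass for it (adjusted p = 0.99, standard error 1.42), in a fit that counts the dye-swapped arrays of a time point as separate although they may hold the same RNA. Centred on the miRNA medians, 2org-223 was higher at 96 h by 1.53, 1 of 8 against 23 of 171 (13.5%), and the difference of 1org-142-s was -0.66, 1 of 8 against 18 of 171 (10.5%) that were lower. Centred on U6 and tRNA, 2org-223, 1org-150 and 1org-181 were higher at 96 h, 3 of 8 against 78 of 171 (45.6%). By unturned means 1org-142-s, 1org-181 and 2org-181b met the rule, each higher at 96 h by 0.99 to 1.11, 3 of 8 against 116 of 171 (67.8%), a rise shared by most of the table.

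**Figure D4:**
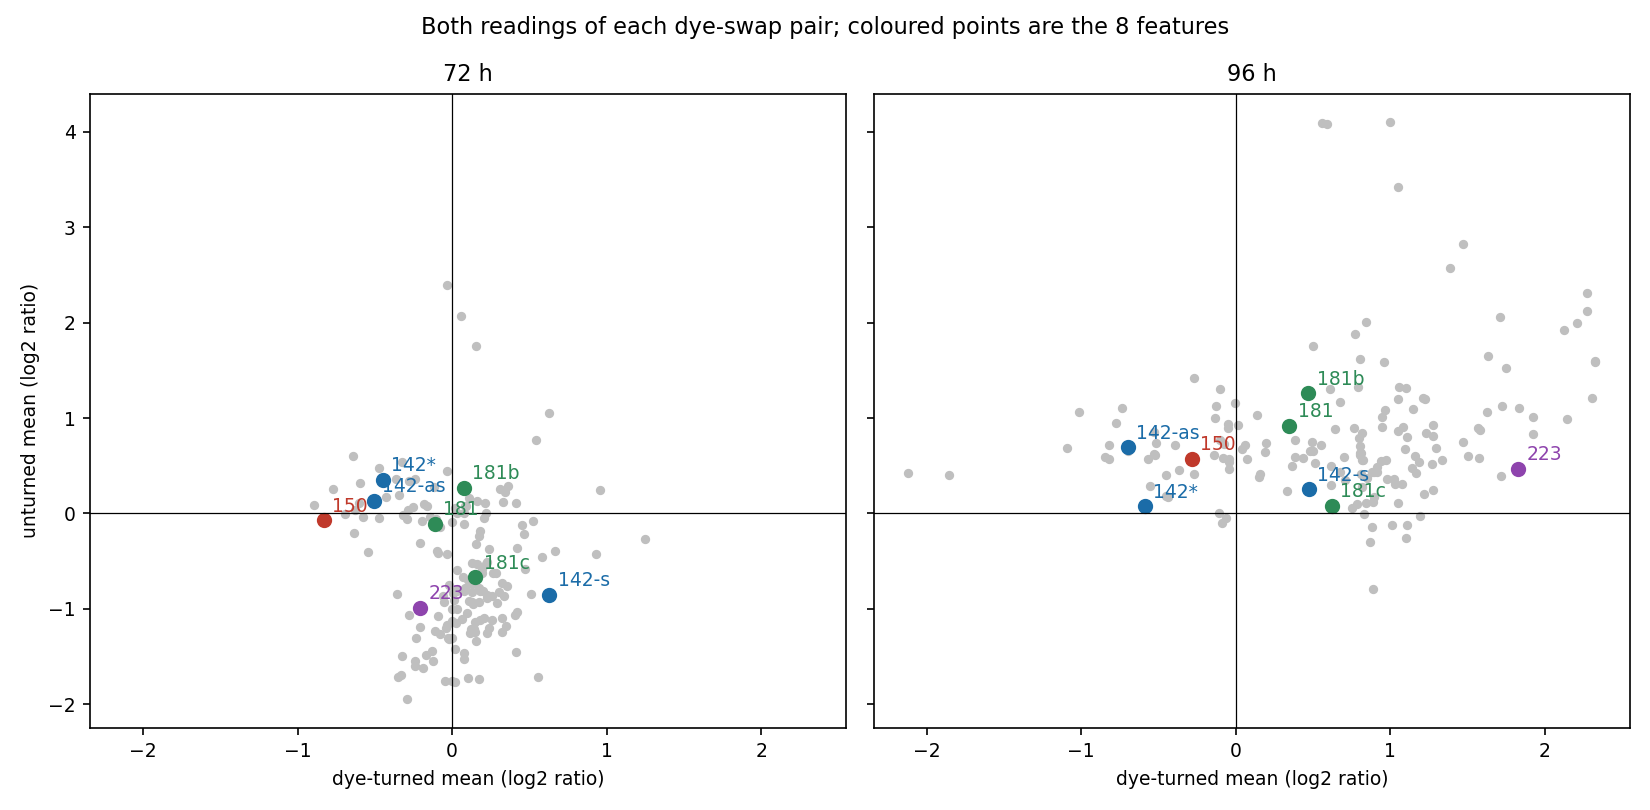
Dye-turned mean (x axis) against unturned mean (y axis) of the log2 ratios at 72 h and 96 h, with 1 point for each of 171 miRNA features and the 8 features coloured. At 72 h 1org-150 lies near the left edge at -0.83, and at 96 h 2org-223 lies far to the right at 1.83, while the 3 features of miR-142 stand on both sides of 0 at both times.

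Other miRNAs listed for blood cells, from a list of 20 numbers of which 18 matched a feature, gave a setting for these values. The matched features were 1org-15a, 1org-15b, 1org-16, 1org-21, 1org-24, 1org-26a, 1org-26b, 1org-29a, 1org-29b, 1org-29c, 1org-30b, 1org-30c, 1org-101, 1org-140, 1org-144, 1org-146, 1org-155 and 1org-191. Whether these are particular to blood cells was not tested. By dye-turned means 11 lay above 0 and 7 below at 72 h, with a median of 0.10, and 10 above and 8 below at 96 h, with a median of 0.11. The 8 lineage features had medians of -0.16 and 0.41, and all miRNA features 0.07 and 0.80. None of the 18 passed limma's adjusted p over both times, and 1 had an unadjusted p under 0.05. Of the 14 matched markers of muscle, nerve, liver, epithelium and other non-blood tissue, 11 were above 0 at 72 h (median 0.13). At 96 h all 14 were (median 1.05). Most of the 171 miRNA features were also above 0 at both times by dye-turned means, with the medians of 0.07 and 0.80 given above. Those below 0 were 69 of 171 at 72 h and 44 of 171 at 96 h. The counts moved with centring. Centred on the miRNA medians, 7 of the 14 non-blood markers were above 0 at 72 h and 12 at 96 h. Of the 18 other blood cell miRNAs, 9 and 3 were above 0 with that centring, against 71 and 99 of all 171. Whether the features of either list differed from the rest was not tested. By dye-turned means of the deposited values, 1org-144, an erythroid marker and the highest of the first list, was at 1.93 at 96 h. Feature 2org-223 was at 1.83, and 1org-126, the highest of the non-blood list, was also at 1.93. The part of other cells in any of them was not tested. By unturned means the non-blood markers had medians of -1.17 at 72 h and 0.97 at 96 h, the other blood cell miRNAs -0.09 and 0.57, and the 8 features -0.09 and 0.52.

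Likeness to the rest of the table was measured as the root mean square difference over the 4 arrays, each centred on its miRNA median, where all pairs of miRNA features had a median of 1.07. Closest to 1org-142-as were 2org-19a at 0.17, 1org-15a at 0.18 and 1org-34c at 0.20, and closest to 2org-142* were 1org-7d at 0.16, 1org-15b at 0.17 and 2org-17-5p at 0.19. Feature 1org-142-s had 1org-130a at 0.37, 1org-30b at 0.39 and 1org-7e at 0.41 as its nearest. For 1org-150 the nearest were 1org-7c at 0.25, 1org-26a at 0.30 and 1org-7g at 0.31, and for 1org-181 they were 1org-7d* at 0.27, 1org-298 at 0.30 and 1org-30d at 0.31. Feature 2org-223 had 2org-213 at 0.37, 1org-144 at 0.38 and 1org-137 at 0.43. Among the 8, the closest pairs were 1org-181 with 2org-181b at 0.39, 1org-142-s with 2org-181c at 0.40 and 1org-142-as with 1org-150 at 0.41, whereas the arms of miR-142 were 1.38 apart, more than 68.4% of all pairs of miRNA features. With 4 points a pattern, these distances are descriptions only.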

How the data were processed

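The authors deposited 1 value per feature and array, taken here as the log2 ratio of the channels. The sources used here do not give the base, direction, centring, scanner or normalization, and natural logs would make each fold larger. RNA and dye of each channel come from the labels. The 2 dye-swapped arrays of a time point were turned and averaged as 1 replicate. An intercept-only fit on the averages of 72 h and 96 h was made with limma 3.58.1 in R 4.3.3, with p-values adjusted over 171 miRNA features. The 7 control RNAs were left out. The fit was tested on simulated data with independent noise and changes larger than any dye-turned mean here. That test does not show whether changes of the size seen here could be found. Counts past 1.5-fold asked that a time point's arrays have 1 sign. All 8 features are named, with the 3 nearest other features of 6 of them. None of the 8 is in the platform annotation. Members, lists and tests were chosen with earlier results of these data known. The number of arrays limits the precision. Alternatives were other centring, reading, log base, threshold, variance model and features, a dye term, and each array left out.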

Additional observations from a re-analysis of the deposited data

Results flagged for a closer look

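In all, 3 features had both arrays of 72 h on 1 side of 0 and both of 96 h on the other, each under a single choice of reading and centring. Feature 2org-223, dye-turned and centred on the miRNA medians, went from -0.33 at 72 h to 1.20 at 96 h, a difference of 1.53 (limma adjusted p = 0.989 for the difference of the time points over the 4 arrays), as did 6 of 171 miRNA features (3.51%) from below to above 0. Feature 2org-181c, unturned and centred on the miRNA medians, went from 0.04 to -0.56, a difference of -0.60 (limma adjusted p = 0.838), and 4 of 171 (2.34%) went from above to below 0. Feature 2org-142*, unturned and centred on U6 and tRNA, went from 0.66 to -0.68, a difference of -1.33 (limma adjusted p = 0.993), and 8 of 171 (4.68%) went from above to below 0. The 3 came from 6 combinations of reading and centring, and none of the 8 had this pattern in the values as deposited, in either reading.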

How the results depend on the processing

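With 1 residual degree of freedom per feature and 2 time points, no p-value here speaks for stability, and the cause of each change below was not tested. The direction of the ratios decided the signs. In the unturned reading the mean over both times reversed for 6 features, to -0.30 for 1org-142-s, 0.41 for 1org-142-as, 0.22 for 2org-142*, 0.25 for 1org-150, -0.29 for 2org-181c and -0.26 for 2org-223, and with centring on the miRNA medians as well, an alternative added after the data were seen, it was -0.27, 0.45, 0.25, 0.29, -0.26 and -0.23 for them. Centring on the miRNA medians alone reversed 1org-181 to -0.25 and 2org-181b to -0.10. The unturned differences were 0.71 for 1org-142-as minus 1org-142-s, 0.52 for 2org-142* minus 1org-142-s, -0.20 for 2org-142* minus 1org-142-as, -0.70 for 2org-181c minus 1org-181 and 1.06 for 2org-181b minus 2org-181c, all reversed, and 0.36 for 2org-181b minus 1org-181.

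With each array left out in turn, means ran from 0.13 to 0.98 for 1org-142-s, -0.95 to -0.26 for 1org-142-as, -0.70 to -0.34 for 2org-142*, -0.84 to -0.27 for 1org-150, -0.34 to 0.58 for 1org-181, -0.36 to 0.90 for 2org-181b, 0.054 to 0.72 for 2org-181c and 0.32 to 1.30 for 2org-223. The means of 1org-181 and 2org-181b were below 0 without 96 h replicate 1. A lone array keeps its dye part, by construction. The 3 differences above within miR-142 ran from -1.65 to -0.66, -1.67 to -0.47 and -0.22 to 0.39, and within miR-181 from -0.15 to 0.69 for 2org-181c minus 1org-181, -0.70 to 0.47 for 2org-181b minus 2org-181c and -0.034 to 0.34 for 2org-181b minus 1org-181.

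Limma called 0 of 171 miRNA features, against 2 with centring on the miRNA medians, 3 in the unturned reading and 0 to 94 with 1 array left out. It called 0 of the 8, and 0 to 2 with 1 array left out. A dye term, in a fit that counted the 4 arrays separately, called 0 in both, as did the fit with control RNAs included. Robust variance gave the same p-values as the main fit and so called 0 too. The natural log reading could not change the calls, because it scales every value alike. With 1 array left out, the rule for counts past 1.5-fold is looser at the time point that lost it, since a lone array has 1 sign by itself. Between the time points, a lone array also overlaps the arrays of the other time less easily. Such counts are therefore not under the same rule as the main ones below. At 72 h, 7.60% of the miRNA features were past 1.5-fold, against 4.68% centred on the miRNA medians, 56.1% unturned, 14.6% with natural logs, 0.585% at 2-fold and 7.60% to 72.5% with 1 array left out. Of the 8, 1 was, against 2 centred on U6 and tRNA, 3 unturned, 3 with natural logs, 0 at 2-fold and 1 to 6 with 1 array left out. At 96 h it was 51.5% of the miRNA features, against 33.9% unturned, 28.7% at 2-fold and 51.5% to 77.8% with 1 array left out. Of the 8, 4 were (2 higher, 2 lower), against 2 unturned, 1 at 2-fold and 4 to 5 with 1 array left out. The split of the 8 moved to 1 higher and 4 lower without 96 h replicate 1, against 41 and 56 of 171 features. It moved to 5 higher without 96 h replicate 2, against 131 of 171, and also with centring on U6 and tRNA, against 108 of 171. Between the time points it was 12 of 171, against 41 centred on the miRNA medians, 81 on U6 and tRNA, 116 unturned and 22 to 120 with 1 array left out, and 1 of the 8, against 2, 3, 3 and 2 to 4. No paired analysis was possible because the labels number the 4 arrays without a number shared between time points.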
